A study of Saccharomyces cerevisiae with 4 samples.

Results

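CLN1, YOX1 and MIF2 are 3 cell cycle genes of budding yeast, a G1 cyclin, a transcriptional repressor and a centromere protein, and they were followed here in cells that had only 1 kind of cytosolic Hsp70-Ssa chaperone. They are 3 of the 5794 features of a whole-genome array. The genes were chosen by name, with their values in these arrays already known, so those values are given as a description. Each was found by matching all 4 of its intensities to the study's list of changed genes, and each had a value on all 4 arrays.

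All 4 strains came from Saccharomyces cerevisiae G402, which is MATa and carries ade2-1, SUQ5 and kar1-1 as well as his3, leu2, lys2, trp1 and ura3. All 4 chromosomal SSA genes were replaced in it (ssa1 by KanMX, ssa2 by HIS3, ssa3 by TRP1 and ssa4 by URA3), and the prion was absent ([psi-]). Each strain received Ssa1, Ssa2, Ssa3 or Ssa4 on a low-copy LEU2 plasmid under the constitutive SSA2 promoter, so that the heat-inducible forms Ssa3 and Ssa4 were made without heat shock. RNA of separate extractions was pooled and hybridised to 1 one-colour array per strain, and the Ssa1 strain was the reference. There were no replicate arrays, so differences were read against a 2-fold threshold and against the share of all features past it, with no test.

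Passage through Start, the commitment of a G1 cell to division, is driven by the cyclin-dependent kinase Cdc28 bound to G1 cyclins. Cln1 and its paralog Cln2 are the G1 cyclins made in late G1, when the SBF complex (Swi4 and Swi6) and the MBF complex (Mbp1 and Swi6) switch on a large set of genes. Yox1 and its paralog Yhp1 are homeodomain repressors that work with Mcm1 at early cell cycle boxes and confine the expression of genes such as CLN3 and SWI4 to the M/G1 transition. YOX1 is itself a late G1 gene. Mif2 is the yeast counterpart of CENP-C, an essential inner kinetochore protein that binds centromeric nucleosomes and links them to the outer kinetochore.

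The 4 arrays had values for 5776 to 5786 features and medians between 200.4 and 201.5, in the arbitrary units of the deposited intensities. Values below 100 made up 32.2% to 34.1% of each array. The SSA2 feature read 2505 on the Ssa2 array and 1.21 to 9.01 on the other arrays, as the label of the Ssa2 array requires. The other SSA genes were not analysed here. Gene names were available for 946 features, all of them from the list of changed genes.

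The 3 genes differed in which strains they stood apart. CLN1 was higher in Ssa2 and Ssa3, YOX1 was lower in Ssa4, and MIF2 was lower in Ssa3. Of the 9 ratios to Ssa1, 4 were past 2-fold. Beside the 1 gene higher in Ssa2, 1.35% of all features were higher past 2-fold there (2.4% were lower). In Ssa3, 1 gene was higher and 1 was lower, beside 2.23% and 1.94% of all features, and in Ssa4 1 gene was lower, beside 7.1% (5.12% were higher). These shares set the scale only, since the same ratios were known when the genes were chosen. The 3 comparisons share the Ssa1 array, so a deviation of that array enters all of them.

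**Figure D1:**
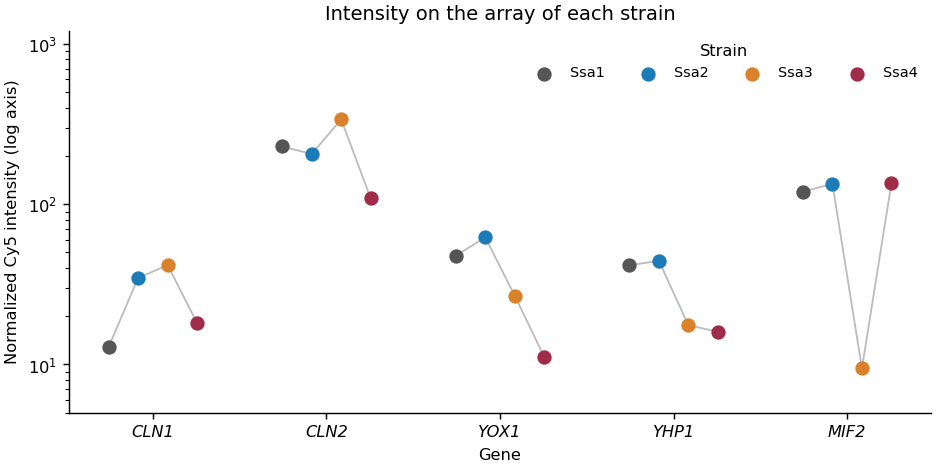
Normalized Cy5 intensity (log axis) of CLN1, YOX1, MIF2 and the paralogs CLN2 and YHP1 on the 4 arrays, 1 point per strain and no error bars, since each strain had 1 array. CLN1 is lowest on the Ssa1 array, YOX1 is lowest on the Ssa4 array at 11.1, and MIF2 is low, at 9.46, on the Ssa3 array alone.

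The cyclin gene CLN1 (YMR199W) gave an intensity of 12.8 in Ssa1, 34.6 in Ssa2, 41.7 in Ssa3 and 18.1 in Ssa4. Its spot was dim on every array, with 6.74% of features dimmer in Ssa1 and 17.6% dimmer in Ssa3. The study also holds a summary of array ratios in which those of CLN1 do not follow from these intensities, and the deposited intensities were used throughout. CLN1 was lowest in the reference strain, and the Ssa4 value was nearer to Ssa1 than to Ssa2 or Ssa3.

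Relative to Ssa1, CLN1 was 2.70-fold higher in Ssa2 (log2 ratio 1.43, position 33 from the top of 5782 features). In Ssa3 it was 3.25-fold higher (log2 ratio 1.70, position 19 of 5779). The Ssa4 ratio of 1.41 was within 2-fold. Of 349 and 352 features with a mean intensity like that of CLN1 (within 0.5 on the log2 scale), 0.287% were higher past 2-fold in Ssa2 and 1.14% in Ssa3. In order of intensity, Ssa4 was 1.41-fold above Ssa1, Ssa2 was 1.91-fold above Ssa4 and Ssa3 was 1.21-fold above Ssa2, so no step between neighbours in the order reached 2-fold.

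The features placed next to CLN1 on the array moved with it. The layout of the array was not given in the sources used here, but the numbering of the features implies 32 blocks, in which features 1, 14 and 15 positions apart were taken as adjacent spots, since earlier work on these values saw such features move together. All 6 such neighbours of CLN1 were higher than in Ssa1 in Ssa2, in Ssa3 and in Ssa4, and all 6 were lowest on the Ssa1 array. Their median log2 ratio was 1.54 in Ssa2, 1.80 in Ssa3 and 1.14 in Ssa4, and 5, 5 and 3 of the 6 were past 2-fold. A neighbour median this high was found around 0.0522%, 0.0348% and 0.087% of all features in the 3 comparisons.

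The named genes among these neighbours belong to different processes. The feature of BET5, a subunit of the TRAPP vesicle tethering complex, stood 1 position before CLN1 and read 1.17 in Ssa1, 4.84 in Ssa2, 5.09 in Ssa3 and 4.51 in Ssa4. The feature of CBP1, which stabilises the mitochondrial cytochrome b transcript, stood 15 positions after it and read 5.88, 19.4, 23.2 and 15.9. PAU16, a member of the seripauperin family, was 14 positions after CLN1 and was bright, at 306 in Ssa1, 1012 in Ssa2, 986 in Ssa3 and 1402 in Ssa4. The low values on the Ssa1 array thus included dim and bright spots around CLN1.

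After the median of its neighbours was subtracted, the ratio of CLN1 was 0.926 in Ssa2, 0.933 in Ssa3 and 0.642 in Ssa4. None of these was past 2-fold, and the values in Ssa2 and Ssa3 lay just below 1. With the median of a wider set of 16 features around CLN1 subtracted instead, a setting chosen after seeing the data, CLN1 stayed above Ssa1 in Ssa2 at 1.39 and in Ssa3 at 1.98, both within 2-fold, and stood at 0.932 in Ssa4. The direction of the CLN1 difference in Ssa2 and Ssa3 therefore depended on how many neighbours were taken. Without the Ssa1 array, CLN1 in Ssa4 was 2.30-fold lower than in Ssa3, beside 6.65% of all features lower past 2-fold in that pair. The CLN1 neighbours had a median log2 ratio of −0.36 there, and the fold after subtraction was 1.80.

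**Figure D2:**
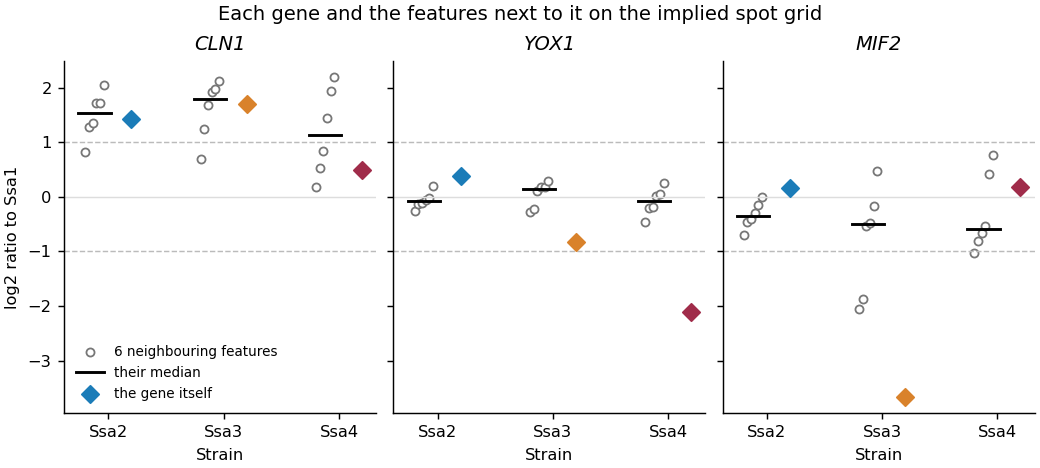
log2 ratio to Ssa1 of CLN1, YOX1 and MIF2 (filled diamonds) in Ssa2, Ssa3 and Ssa4, beside the 6 adjacent features of the implied spot grid (open circles) and their median (bar). Dashed lines mark 2-fold. CLN1 lies among its neighbours in all 3 strains, YOX1 in Ssa4 lies below all 6 of its own, and MIF2 in Ssa3 lies below 4 neighbours near 0 and 2 that are low.

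The paralog CLN2 (YPL256C) gave 229 in Ssa1, 206 in Ssa2, 338 in Ssa3 and 109 in Ssa4. It was highest in Ssa3, as CLN1 was, but its lowest value was in Ssa4 and not in Ssa1. Its ratios to Ssa1 were 0.898 in Ssa2, 1.48 in Ssa3 and 0.475 in Ssa4, so that only the 2.11-fold lower value in Ssa4 was past 2-fold. The neighbours of CLN2 had median log2 ratios of 0.08, 0.34 and −0.16, and with these subtracted the CLN2 ratios were 0.848, 1.16 and 0.529. Set beside the subtracted CLN1 ratios of 0.926, 0.933 and 0.642, both G1 cyclins then had their lowest ratio in Ssa4 and none was past 2-fold. With the wider set of neighbours CLN2 was at 0.850, 1.34 and 0.469, so that CLN2 in Ssa4 was again past 2-fold. In Ssa4 over Ssa3, where Ssa1 has no part, CLN2 was 3.11-fold lower.

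The repressor gene YOX1 (YML027W) gave 47.7 in Ssa1, 62.0 in Ssa2, 26.9 in Ssa3 and 11.1 in Ssa4. It was highest in the strain with Ssa2 and stood lower in both strains with a heat-inducible form. The ratio to Ssa1 was 1.30 in Ssa2 and 0.563 in Ssa3, both within 2-fold. In Ssa4 YOX1 was 4.29-fold lower than in Ssa1 (log2 ratio −2.10), which placed it at position 41 from the bottom of 5776 features.

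From Ssa2 down to Ssa4 the order of YOX1 had 1 step past 2-fold. Ssa1 was 1.30-fold below Ssa2, Ssa3 was 1.78-fold below Ssa1, and Ssa4 was 2.42-fold below Ssa3. From Ssa2 to Ssa4 the whole difference was 5.58-fold, at position 14 from the bottom of 5774 features, beside 3.79% of all features lower past 2-fold in that pair. YOX1 was also 2.31-fold lower in Ssa3 than in Ssa2, beside 2.51%. The low value in Ssa4 was thus present against each of the other 3 arrays.

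The features around YOX1 did not move with it. In Ssa4 its 6 neighbours had log2 ratios between −0.47 and 0.25 and a median of −0.08, and 0 of the 6 were past 2-fold in any of the 3 strains. A feature 3 positions before YOX1 was low as well, but in all 3 strains, with log2 ratios of −2.54 in Ssa2, −1.20 in Ssa3 and −2.73 in Ssa4. With the neighbour median subtracted, YOX1 was 4.05-fold lower in Ssa4. Subtraction gave ratios of 1.37 in Ssa2 and 0.509 in Ssa3. The YOX1 spot was dim, however, and spots of like mean intensity reached further down in Ssa4 than in Ssa2 or Ssa3. Most such spots had ratios to Ssa1 between 0.324 and 1.85 in Ssa4, 0.450 and 1.83 in Ssa2, and 0.495 and 1.75 in Ssa3. Of 344 features with a mean intensity like that of YOX1, 15.7% were lower past 2-fold in Ssa4, and 0.872% were as low as YOX1.

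The paralog YHP1 (YDR451C) gave 41.5 in Ssa1, 44.4 in Ssa2, 17.6 in Ssa3 and 15.99 in Ssa4. Like YOX1, it was higher in Ssa1 and Ssa2 than in Ssa3 and Ssa4. YHP1 was 2.36-fold lower than in Ssa1 in Ssa3 and 2.60-fold lower in Ssa4, and its ratio in Ssa2 was 1.07. All 6 neighbours of YHP1 were also lower in Ssa3, with a median log2 ratio of −0.64, and subtraction left YHP1 1.52-fold lower there. In Ssa4 the neighbour median of YHP1 was −0.17 and the gene remained 2.31-fold lower. Both repressor genes were therefore lower past 2-fold in Ssa4 with and without the subtraction. The YHP1 spot was dim as well. Of 385 features with a mean intensity like that of YHP1, 17.1% were lower past 2-fold in Ssa4, and 6.75% were as low as YHP1.

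**Figure D3:**
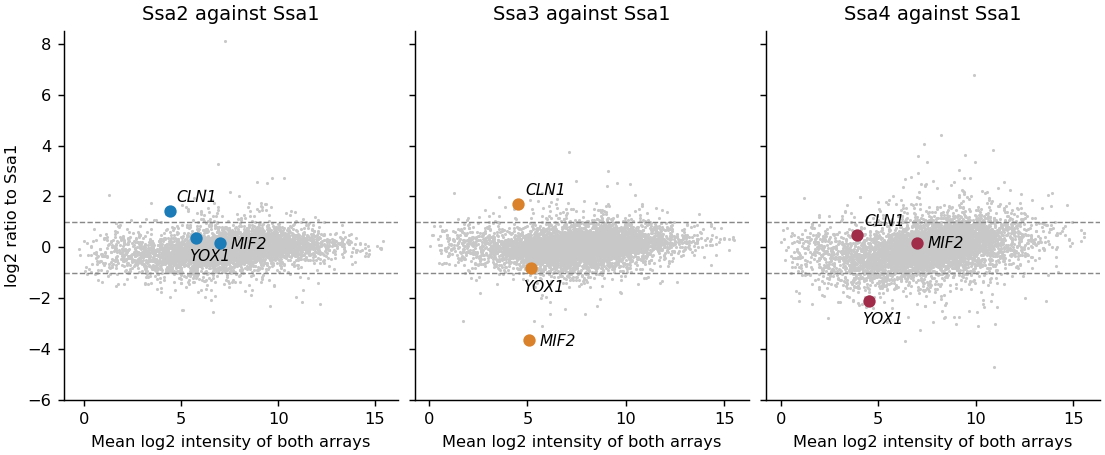
log2 ratio to Ssa1 against the mean log2 intensity of both arrays for all features (grey) in Ssa2, Ssa3 and Ssa4, with CLN1, YOX1 and MIF2 marked and 2-fold shown by dashed lines. MIF2 in Ssa3 has the lowest ratio of all features of that panel, while CLN1 in Ssa2 and Ssa3 and YOX1 in Ssa4 lie at the edge of the dim features.

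The centromere protein gene MIF2 (YKL089W) gave 119.8 in Ssa1, 134 in Ssa2, 9.46 in Ssa3 and 135 in Ssa4. The Ssa1, Ssa2 and Ssa4 values lay within 1.13-fold of Ssa1, and only the Ssa3 array differed. There MIF2 was 12.7-fold lower than in Ssa1 (log2 ratio −3.66), the lowest ratio of all 5779 features compared. Of all features, 36.5% were dimmer than MIF2 in Ssa1 and 5.21% were dimmer than it in Ssa3.

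The Ssa3 value of MIF2 was as low against the other strains. MIF2 in Ssa3 was 14.2-fold lower than in Ssa2, at position 2 from the bottom of 5777 features. In Ssa4 it was 14.3-fold higher than in Ssa3, at position 3 from the top of 5773 features, beside 2.74% of all features higher past 2-fold. The MIF2 difference thus rested on its spot on 1 array. Of 433 features with a mean intensity like that of MIF2 in this comparison with Ssa1, 2.54% were lower past 2-fold in Ssa3 and none was as low.

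Part of the surroundings of MIF2 was also low on the Ssa3 array. Of its 6 neighbours, 2 were lower past 2-fold there, while the other 4 had log2 ratios between −0.53 and 0.48. The feature of SWP82, a subunit of the SWI/SNF chromatin remodelling complex, stood 14 positions after MIF2 and read 102 in Ssa1, 77.0 in Ssa2, 27.8 in Ssa3 and 57.8 in Ssa4. Its log2 ratio in Ssa3 was −1.87.

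The median of the 6 neighbours of MIF2 in Ssa3 was −0.50, and with it subtracted the gene was 8.95-fold lower. The whole block that holds MIF2 was shifted in that comparison, with a median log2 ratio of −0.46 and 25 of 178 features, or 14.04%, lower past 2-fold. In Ssa2 and Ssa4 the neighbour medians were −0.35 and −0.59, and MIF2 itself gave log2 ratios of 0.16 and 0.17. Subtraction raised those ratios to 1.43 and 1.70. Whether the spot of MIF2 on the Ssa3 array was disturbed along with that of SWP82 was not tested.

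**Figure D4:**
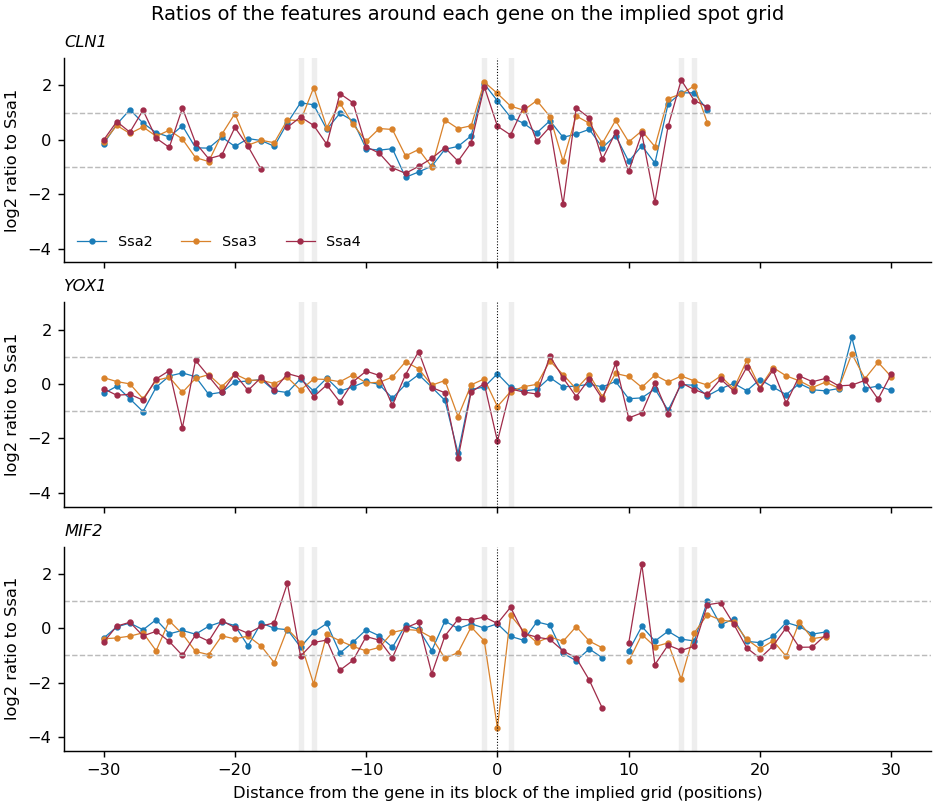
log2 ratio to Ssa1 in Ssa2, Ssa3 and Ssa4 of the features up to 30 positions before and after CLN1, YOX1 and MIF2 in their blocks of the implied grid, with adjacent spots shaded and 2-fold dashed. Around CLN1 the ratios rise together at the gene and again about 14 positions to either side, around YOX1 the Ssa4 line dips at the gene and, with Ssa2, 3 positions before it, and around MIF2 the Ssa3 line dips at the gene and 14 positions to either side.

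The profiles most like those of the 3 genes over the 4 arrays were sought among the 945 other named features, by the distance between log2 intensities centred on their own mean. The nearest to CLN1 was RKM3, a ribosomal lysine methyltransferase gene, at a distance of 0.16. Its feature stood 13 positions from CLN1 in the same block and had neighbour medians of 0.93, 1.10 and 0.92. Next came YFL002W at 0.29, whose neighbours were near 0 (−0.13, 0.07 and −0.36), then MRP1, OPI1 and PUS6, of which OPI1 is a grid neighbour of CLN1. Of the 5 profiles nearest to CLN1, 2 thus came from its own patch of the array.

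Nearest to YOX1 was LCP5, a gene of ribosomal RNA processing, at 0.23, with 39.8 in Ssa1, 42.3 in Ssa2, 22.2 in Ssa3 and 8.40 in Ssa4. Its neighbours, unlike those of YOX1, were low in Ssa4, with a median log2 ratio of −1.54. YEL075C, YHL049C, CSI2 and the phosphate transporter gene PHO89 followed. The neighbours of CSI2, a gene of the late G1 list, had a median of −0.16 in Ssa4.

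No profile came close to that of MIF2. The nearest, GPI8, which encodes a subunit of the GPI transamidase, stood at a distance of 0.99, and PIK1 (a phosphatidylinositol 4-kinase gene), DOT5, OXA1 and POP1 were farther. All 5 were low in Ssa3, and so were the features around each of them, with neighbour median log2 ratios of −1.98, −1.20, −1.06, −1.06 and −1.19. The MIF2 median of −0.50 was less low than any of these. The features of PIK1 and POP1 lay in the same block as MIF2, whose median log2 ratio in Ssa3 was −0.46.

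The other genes of the same cell cycle steps were read from 5 lists, of which 37 of 167 genes had a named feature. Names exist only for genes that the study listed as changed, so the counts bear comparison only with the 946 named features. Of those, 43.2% were lower and 30.9% were higher past 2-fold in Ssa4. In Ssa3 the shares were 11.8% and 13.3%, and in Ssa2 14.2% and 8.03%.

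Among late G1 genes, the targets of SBF and MBF, 18 of 41 had a feature, and 15 of the 18 were lower past 2-fold in Ssa4, with none higher. Their median log2 ratio in Ssa4 was −1.29, beside −0.65 over all named features and −0.01 over all features. The largest differences belonged to CSI2, which was 5.30-fold lower, TOS6 (a cell wall protein gene) at 4.87-fold, YOX1 at 4.29-fold and TOS4, which encodes a protein with a forkhead-associated domain, at 4.21-fold. SVS1 was 3.15-fold lower, and RNR1, the large subunit of ribonucleotide reductase, was 3.06-fold lower. Of these 6 genes, TOS6, SVS1 and RNR1 read above the array median in Ssa1, at 772, 1071 and 313, and gave 159, 340 and 102 in Ssa4.

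With neighbour medians subtracted, 12 of the 18 late G1 genes remained lower past 2-fold in Ssa4, or 66.7%, beside 33.1% of named features. The 3 late G1 genes not past 2-fold as deposited were HCM1, GIC2 and CLN1. CLN1 and GIC2, an effector gene of Cdc42, had Ssa4 ratios of 1.41 and 1.19. They were also the 2 of 18 late G1 genes (11.1%) higher past 2-fold in Ssa2 and in Ssa3, beside 8.03% and 13.3% of named features. GIC2 was 4.01-fold higher in Ssa2 and 3.54-fold higher in Ssa3, with neighbour medians of 0.58 and 0.95. After subtraction GIC2 stood at 2.68 and 1.84, so that of the pair GIC2 in Ssa2 stayed past 2-fold. The late G1 genes lower past 2-fold in Ssa3 were YHP1 and HCM1, and none was lower in Ssa2, beside 11.8% and 14.2% of named features.

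**Figure D5:**
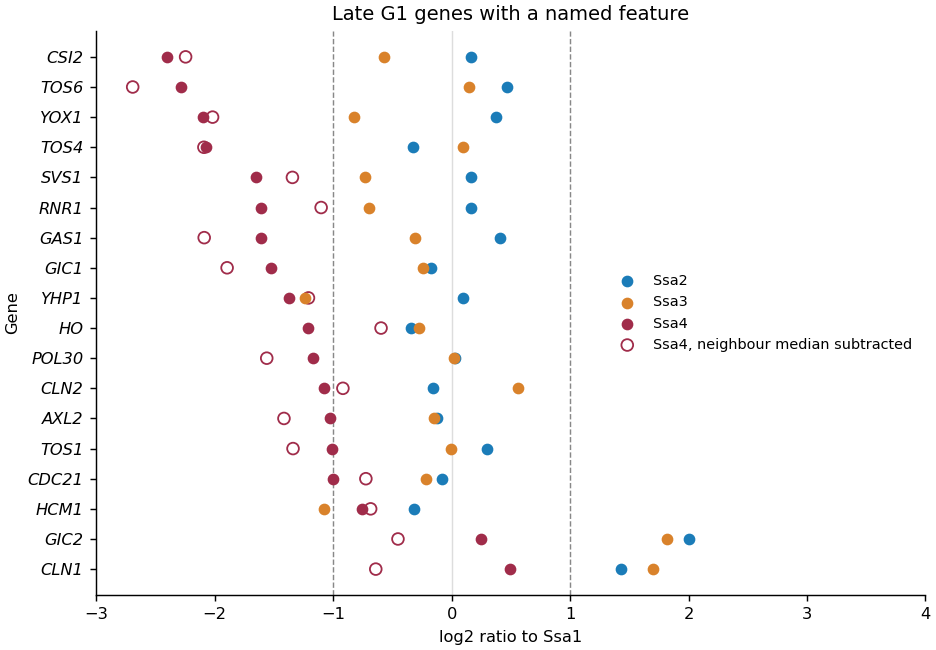
log2 ratio to Ssa1 of the 18 late G1 genes with a named feature, in Ssa2, Ssa3 and Ssa4, with open circles for Ssa4 after the neighbour median was subtracted and dashed lines at 2-fold. In Ssa4, 15 of the 18 genes lie below the lower line, and CLN1 and GIC2 lie to the right in all 3 strains as deposited.

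Of 23 genes of cyclins and Start, 4 had a feature. Besides CLN1 and CLN2 these were CLB4, a B-type cyclin gene, which was 2.87-fold lower in Ssa4, and MBP1, the DNA-binding subunit of MBF, which was 2.69-fold lower. CLN1 was the 1 gene of this list higher past 2-fold in Ssa2 and in Ssa3, beside 8.03% and 13.3% of named features. In Ssa4, 3 of the 4 were lower past 2-fold, beside 43.2% of named features. With only 4 genes this difference in share was not read further. CLB4 and MBP1 were dim, at 26.7 and 17.1 in Ssa1. A neighbour median was available for CLN1, CLN2 and MBP1. With it subtracted none of these 3 was past 2-fold in Ssa4, beside 33.1% of named features lower. With the wider set of neighbours 2 of the 3 were lower past 2-fold, beside 35.2%.

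The kinetochore and checkpoint list, to which MIF2 belongs, had features for 7 of 58 genes. MIF2 was the only one of the 7 lower past 2-fold in Ssa3, and it was the only one not lower past 2-fold in Ssa4. This contrast was partly fixed by the naming, since only genes that the study listed as changed have a name. The 6 lower in Ssa4 included NBL1, a subunit of the chromosomal passenger complex, which was 3.73-fold lower in Ssa4 and 3.20-fold lower in Ssa2, where it was the 1 gene of the list past 2-fold. NKP2, CBF1, MTW1 and SLK19 were between 2.26-fold and 2.46-fold lower in Ssa4, and the checkpoint gene BUB2 was 2.12-fold lower. Of these, Mtw1 belongs to the MIND complex of the outer kinetochore, to which Mif2 binds. With neighbours subtracted, 4 of the 7 were lower past 2-fold in Ssa4, beside 33.1% of named features (43.2% as deposited). The 6 genes lower in Ssa4 were dim, between 4.20 (BUB2) and 66.0 (SLK19) in Ssa1.

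Over the 37 list genes together, 27 (73.0%) were lower and 0 were higher past 2-fold in Ssa4, beside 43.2% and 30.9% of named features. YOX1, chosen with its values known, was among the 27. CLN1, CLN2, YOX1 and YHP1 each stood in more than 1 list, so the counts of the lists were not separate. The lowest of the 4 values lay on the Ssa4 array for 29 of the 37, beside 42.8% of all named features. YOX1 was among those 29, whereas CLN1 was lowest in Ssa1 and MIF2 in Ssa3. The counts in Ssa4 rest on many dim spots, and dim spots leaned low on that array. Over all named features the median log2 ratio in Ssa4 was −0.65, and it was 0.23 with a limit of 100 on intensity. With an intensity of at least 100 required on 1 of both arrays, 9 late G1 genes were left, of which 8 or 88.9% were lower past 2-fold, beside 31.8% of named features, and each of the other 4 lists kept 1 gene.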

How the data were processed

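The authors pooled total RNA of separate extractions for each strain (8 in the deposited description, a different number in the methods, which also give overnight growth where the labels give exponential growth), labelled amplified RNA with Cy5 and hybridised 1 Toray 3D-Gene Yeast Oligo chip per strain. The deposited values are linear intensities: per the study's methods, the authors took the median foreground of each spot, kept spots above the blank spots, subtracted the mean blank signal and scaled each array by its median. RT-qPCR was also done in the study; its values were not used here, and every ratio rests on 1 array per strain. No depth applies; the number of arrays limits precision.

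Ratios to Ssa1 were formed from the 5794 features without offset or filter and read at 2-fold, the study's threshold. Features were named where all 4 values matched a row of the study's list of changed genes (relative tolerance 1e-05): 955 of 955 rows matched 1 feature each, giving 946 named features, and 0 matched with the columns shifted. In 7 named features the listed symbol and locus belong to different genes of the R64 gene table, and the 2 of them in the gene lists were left out of the lists. The fold changes in that list were not used. Neighbours were the features 1, 14 and 15 positions away in the implied block, with at least 3 of 6 required. Genes named were CLN1, YOX1 and MIF2, the paralogs CLN2 and YHP1, genes of 5 lists (cyclins and Start, late G1, M/G1, kinetochore and checkpoint, spindle and spindle pole body) past 2-fold, with at most 6 values per list and comparison, and the 5 nearest profiles per gene; grid neighbours such as BET5, CBP1, PAU16 and SWP82 were named for their place on the grid, after their values were seen, as were HCM1 and GIC2 in Ssa4. The genes and lists were chosen with earlier results of these data known. Alternatives were offsets of 10 and 50, a 3-fold threshold, an intensity limit of 100, other scalings, another reference and subtraction of neighbour medians. The steps were tested on simulated data and run in Python 3.11.15 with pandas 2.3.3, numpy 2.4.6, matplotlib 3.10.9, statsmodels 0.14.6 and scipy 1.17.1.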

Additional observations from a re-analysis of the deposited data

Results flagged for a closer look

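In YOX1, MIF2, CLN2 and YHP1 the ratios to Ssa1 lay on both sides of 1 in different strains, and the differences were not tested, as each strain had 1 array. The ratios above 1 were all within 2-fold. They were 1.30 for YOX1 in Ssa2, 1.12 and 1.13 for MIF2 in Ssa2 and Ssa4, 1.48 for CLN2 in Ssa3 and 1.07 for YHP1 in Ssa2. For YOX1 the log2 ratio in Ssa2 was above that in Ssa4 by 2.48. For MIF2 the ratio in Ssa2 was above that in Ssa3 by 3.82 on the log2 scale, and the ratio in Ssa4 was above that in Ssa3 by 3.84. For the G1 cyclin gene CLN2 the ratio in Ssa3 was above that in Ssa4 by 1.64. For the repressor gene YHP1 the ratio in Ssa2 was above that in Ssa3 by 1.34 and above that in Ssa4 by 1.47. As deposited, CLN1 was above Ssa1 in all 3 strains and has no such difference. With neighbour medians subtracted CLN1 was at 0.926, 0.933 and 0.642 in Ssa2, Ssa3 and Ssa4. With the wider set of neighbours it was at 1.39, 1.98 and 0.932, on both sides of 1.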

How the results depend on the processing

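MIF2 in Ssa3 stayed past 2-fold under each alternative run, with ratios from 0.0706 to 0.350, and YOX1 in Ssa4 under all but an offset of 50, where it was 0.625, and the limit of 100 on intensity, which it did not reach. CLN1 in Ssa2 was 1.95 with an offset of 10, 1.35 with 50, 1.91 against the median of the other 3 arrays, 0.926 with the neighbour median subtracted and 1.39 with a wider set of neighbours, a setting chosen after seeing the data. CLN1 in Ssa3 was 1.46 with an offset of 50, 0.933 with neighbours subtracted and 1.98 with the wider set. CLN1 in Ssa4 was 0.524 against the other 3 arrays, 0.642 with neighbours and 0.932 with the wider set. YOX1 in Ssa2 was 2.31 against the other 3 arrays, and MIF2 in Ssa4 was 1.70 with neighbours subtracted. The other 58 of these ratios kept direction and side. Of the 4 ratios past 2-fold, 1 remained with an offset of 50, 2 with either neighbour subtraction and 1 with the limit of 100. Genes lower in Ssa4 numbered, at 3-fold, with the limit of 100 and with an offset of 50, 7, 8 and 5 for late G1 (15 as deposited), or 38.9%, 88.9% of 9 and 27.8%, beside 10.99%, 31.8% and 12.2% of named features; 0, 1 and 0 for cyclins and Start (3), which was 0 with neighbours subtracted and 2 with the wider set; 1, 0 and 0 for M/G1 (3); 1, 0 and 0 for kinetochore (6); and 1, 0 and 0 for spindle (3). The limit left 1 gene in each list but late G1. A stricter threshold or limit counts fewer genes by construction, and an offset shrinks the ratios of dim spots; no other cause was tested. No paired analysis was possible because each strain had 1 array, and no replicate could be left out.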

Other observations

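Of 28 genes of the M/G1 transition and of cell separation, 6 had a feature. In Ssa4, 3 of the 6 were lower past 2-fold, YOX1 and YHP1 among them, and the same 3 genes remained so with neighbour medians subtracted. The chitinase gene CTS1, which acts in cell separation, gave 5.92 in Ssa1, 4.91 in Ssa2, 14.97 in Ssa3 and 3.26 in Ssa4, and DSE2, a gene of daughter cell separation, gave 439, 525, 984 and 688. CTS1 and DSE2 were thus the 2 genes of the list higher past 2-fold in Ssa3, at 2.53-fold and 2.24-fold, and with neighbours subtracted they were at 2.57-fold and 2.01-fold. MCM2, a subunit of the replicative helicase, was 2.73-fold lower in Ssa2 (69.4 in Ssa1 and 25.4 in Ssa2), where its neighbours had a median log2 ratio of −0.69, and had a ratio of 0.590 with these subtracted.

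Of 30 spindle and spindle pole body genes, 6 had a feature. BBP1, SPC110 and the kinesin gene KAR3 were lower past 2-fold in Ssa4, by 3.08-fold, 2.31-fold and 2.28-fold. These 3 of 6 (50%) were near the 43.2% of named features. Their spots were dim, at 28.6, 25.5 and 60.8 in Ssa1. NDC1 and KAR3 were lower in Ssa3, by 2.43-fold and 2.01-fold, beside 11.8% of named features. Neither was past 2-fold with neighbours subtracted (ratios of 0.556 and 0.518). SPC97, of the gamma-tubulin complex, was 2.14-fold higher in Ssa2, beside 8.03% of named features higher past 2-fold, and 1.57-fold higher with neighbours subtracted.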
